A study of Mus musculus with 26 samples.

Results

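The clustered histone genes were taken as the rows of the deposited count table whose symbol begins with Hist1h, Hist2h, Hist3h or Hist4h and whose counts came to at least 20 over all 26 libraries. This gave 62 genes of 35976 in the table: 6 of the linker histone H1, 15 of H2a, 16 of H2b, 12 of H3 and 13 of H4. A further 7 rows had too few counts, among them Hist1h2ba and 3 others at 0 in every library. The total was 21 counts for Hist2h2aa2 and 23 for Hist1h1t, just inside the limit, and 6 for Hist2h2aa1 and 4 for Hist1h2br, just outside it. The names were used to choose the members and their counts only for that limit.

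RNA of mouse liver tumours and control livers had been sequenced. Tumours arose after tamoxifen on postnatal day 28 in mice of mixed C57BL/6J and Swiss Webster background, which were followed for 6 to 12 months. Cyp1a2_CA mice carried Cyp1a2-CreERT2, a tamoxifen-dependent Cre recombinase driven from a gene of hepatocytes around the central vein, with Ctnnb1(ex3)fl/+, which yields a stabilised beta-catenin, and Arid2fl/fl, which removes a chromatin remodelling subunit (10 libraries, 9 animal numbers). Gls2_CA mice carried the same 2 floxed genes with Gls2-CreERT2, driven from a gene of hepatocytes around the portal vein (9 libraries, 5 animal numbers). The single Cyp1a2_C library came from a mouse with Cyp1a2-CreERT2 and Ctnnb1(ex3)fl/+ and no Arid2 allele in its label. WT livers came from 6 C57BL/6J mice that had received AAV-Cre, an adeno-associated virus carrying Cre, and normal chow for up to 12 months. Strain, virus, tamoxifen and tumour genotype therefore differ together between tumours and WT and cannot be told apart. Libraries with the same animal number in their title were summed, n counts animal numbers, and p-values measure the spread between them. The labels do not say whether polyadenylated RNA was selected, and fewer cells of a type cannot be told apart from less RNA per cell in bulk tissue.

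Total counts were 13486530 to 16975288 per WT library and 36992043 to 49254470 per tumour library (20 libraries). Arid2 was at 60.1 to 72.8 CPM (counts scaled to the size of the library) in WT libraries. In the 19 libraries of Cyp1a2_CA and Gls2_CA it was at 23.4 to 47.1 CPM, and in Cyp1a2_C at 42.5 CPM. Alb, the hepatocyte product albumin, was at 49512 to 69601 CPM in WT and at 1973 to 30637 CPM in those 19 libraries, and at 297 CPM in Cyp1a2_C. In 4 tumour libraries (CAB44, CAB225, GAB235 and the Cyp1a2_C library CB6) the muscle gene Ttn exceeded 1000 CPM, against at most 92.9 CPM in the other 16. Calls of members that changed without these animals are given beside the gene.

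Clustered histone genes are present in many near-identical copies so that a dividing cell can make enough histone to package newly copied DNA. Their transcription is tied to S phase through the coactivator NPAT, and most of their mRNAs end in a conserved stem-loop bound by SLBP in place of a poly(A) tail. H2A, H2B, H3 and H4 form the nucleosome core, and H1 binds the linker DNA between nucleosomes. Some copies, Hist1h1c and Hist1h2bc among them, also make polyadenylated mRNA in cells that do not divide, and in normal adult liver few hepatocytes do.

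By GENCODE M21 on the mm10 assembly, 49 members lie on chromosome 13, 48 of them between 21715763 and 23764406, 9 on chromosome 3 (96219865 to 96270132), 3 on chromosome 11 and 1 on chromosome 6. Hist1h2al (chr13:51202727-51203065) lies outside these clusters and, like Hist3h2bb-ps, is annotated as a processed pseudogene. The other 60 are protein-coding. A 16-base stem-loop of the form seen in histone mRNAs (its conserved letters with complementary arms), searched on the transcript strand after the stop codon, was found in 43 of the 60 (71.7%). It was found anywhere in the transcripts of 56 of 21952 protein-coding genes (0.255%), these members included. Of the 17 without a match, 15 had fewer than 60 annotated bases after the stop codon. The form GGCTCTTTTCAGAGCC was shared by 23 members, and GGCCCTTTTCAGGGCC by 7 H4 members. The sites below belong to members that the comparisons turn on, 4 that were lower in tumours and 2 that were higher, with the stem-loop in capitals, 5′ to 3′ on the transcript strand, from the GENCODE M21 transcripts.
Hist1h1e: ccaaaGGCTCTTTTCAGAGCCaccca
Hist1h1c: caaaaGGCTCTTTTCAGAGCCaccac
Hist1h4d: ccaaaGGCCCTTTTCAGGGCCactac
Hist1h3e: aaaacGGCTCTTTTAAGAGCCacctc
Hist1h2ad: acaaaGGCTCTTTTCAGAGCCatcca
Hist1h3g: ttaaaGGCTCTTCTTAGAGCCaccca
They lie at chr13:23621777-23621802 (minus strand, 40 bases after the stop codon), chr13:23739507-23739532 (plus, 24 bases), chr13:23581945-23581970 (plus, 36 bases), chr13:23561898-23561923 (minus, 36 bases), chr13:23574890-23574915 (plus, 31 bases) and chr13:23535884-23535909 (plus, 32 bases). All 6 are in 3′ untranslated exon sequence. Hist1h1e, which fell, and Hist1h2ad, which rose, carried the same 16 bases.

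Promoters of 55 members were matched in RefSeq (GRCm38.p6, 250 bases before to 50 after the start). The octamer ATTTGCAT, searched on both strands like the other motifs, stood in 11 of them (20%), in 6 of 14 H2a and 5 of 13 H2b promoters and in none of H1, H3 or H4, against 1.75% of 27025 promoters. CCAAT stood in 46 of 55 (83.6%), including every matched H1, H2a, H2b and H3 promoter but 3 of 12 of H4, against 37.9% of all promoters. TATAAA stood in 32 of 55 (58.2%), against 14.2%. Of the H2a and H2b members tested between Cyp1a2_CA and WT, 2 rose and 2 fell of 11 with the octamer, and 6 rose and none fell of 12 whose matched promoter lacked it, against 38.3% higher and 32.7% lower of all genes tested, and the difference between the sets was not tested. A match is only a run of letters and no binding was measured. The promoter of Hist1h2ah, which rose in Cyp1a2_CA, holds all 3 motifs, and that of Hist1h1e, which fell, holds CCAAT and TATAAA (motifs on either strand in capitals).
Hist1h2ah promoter: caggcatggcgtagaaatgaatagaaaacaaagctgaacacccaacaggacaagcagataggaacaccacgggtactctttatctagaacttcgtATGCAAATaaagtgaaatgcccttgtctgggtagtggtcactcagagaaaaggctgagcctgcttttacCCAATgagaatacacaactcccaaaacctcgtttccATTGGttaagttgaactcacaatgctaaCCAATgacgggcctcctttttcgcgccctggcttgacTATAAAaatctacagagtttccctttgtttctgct
Hist1h1e promoter: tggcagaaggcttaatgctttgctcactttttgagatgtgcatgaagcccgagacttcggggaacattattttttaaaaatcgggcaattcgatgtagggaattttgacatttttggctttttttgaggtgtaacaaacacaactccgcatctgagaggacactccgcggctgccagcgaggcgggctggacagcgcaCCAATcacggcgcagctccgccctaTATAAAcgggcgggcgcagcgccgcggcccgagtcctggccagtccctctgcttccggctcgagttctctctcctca
They are chr13:22035594-22035893 and chr13:23622509-23622808, both on the minus strand.

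Copies share sequence, which limits how well reads can be assigned. In 30 members fewer than 50% of the 50-base windows of their transcripts were absent from every other gene, 6.0% in Hist1h2af, 7.87% in Hist1h2ah and 10.2% in Hist1h4m. The share was 91.5% in Hist1h1c, 69.4% in Hist1h2bc and 89.8% in Hist1h4d. An annotated exon of Hist1h2be overlaps 496 bases of Hist1h1e on the same strand, and Hist3h2a overlaps 708 bases of Trim17. No source used here names the counting program or its treatment of such reads, so values of single copies are uncertain, and sums over a class are less affected where such reads were split between copies but not where they were dropped.

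The classes were first summed. H1 was lower in every tumour animal than in every WT animal, and H2a was higher on average in tumours with overlap. The H1 members summed to 88.2 ± 10.9 CPM over the 6 WT animals (mean ± SD, as for all sums). The 9 Cyp1a2_CA animals gave 30.6 ± 6.58 CPM and the 5 Gls2_CA animals 29.7 ± 4.38 CPM. The lowest WT animal had 71.7 CPM and the highest tumour animal of these groups 41.2 CPM. Summed H2a members were at 14.0 ± 4.48 CPM in WT, 29.0 ± 14.1 in Cyp1a2_CA and 26.9 ± 11.6 in Gls2_CA. These sums include the pseudogene Hist1h2al. Over pooled counts it had 0.021 CPM in WT, 0.69 in Cyp1a2_CA and 4.48 in Gls2_CA, and no sum was made without it. The WT range was 10.3 to 22.7 CPM and the tumours' range 12.5 to 54.3 CPM, so the groups overlapped.

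Core histones other than H2a did not share that pattern. Summed H2b was at 104 ± 14.2 CPM in WT, 84.1 ± 22.2 in Cyp1a2_CA and 88.8 ± 23.3 in Gls2_CA, and 82.9 to 85.2% of it was Hist1h2bc. Without Hist1h2bc, H2b came to 15.3 ± 1.55, 14.4 ± 5.07 and 13.4 ± 6.27 CPM. Summed H3 was at 16.2 ± 2.37, 15.4 ± 6.11 and 13.6 ± 5.81 CPM, with overlapping ranges. Summed H4 was at 62.6 ± 5.80 CPM in WT, 42.9 ± 11.2 in Cyp1a2_CA and 39.5 ± 9.46 in Gls2_CA, with every Gls2_CA animal (25.0 to 47.8 CPM) under the lowest WT animal (55.1 CPM). The Cyp1a2_C animal had 42.4 CPM of H1, 67.7 of H2a, 47.5 of H2b, 29.0 of H3 and 62.5 of H4. Class sums are a description and were not tested.

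**Figure D1:**
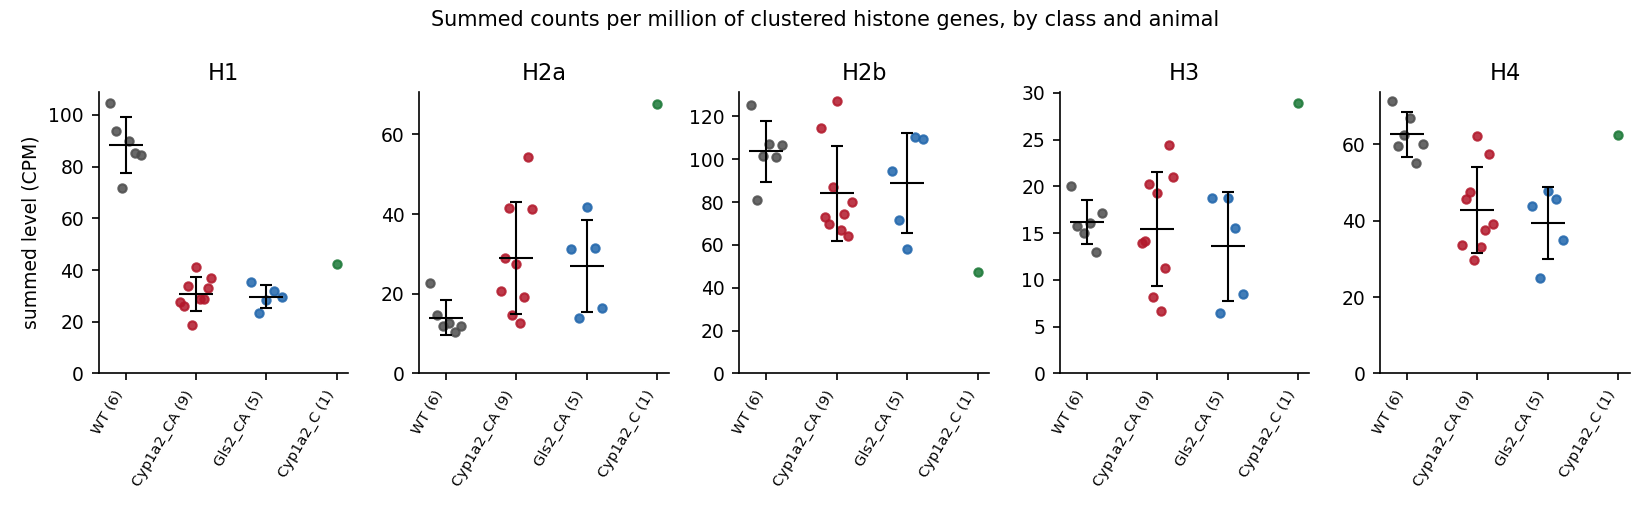
Summed CPM of the members of each class (y axis, linear from 0) by group (x axis, number of animals in brackets). Points are animals, and the bar and whiskers are mean ± SD. The 6 WT animals have 71.7 CPM or more of H1 and the tumour animals of the replicated groups at most 41.2 CPM.

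Cyp1a2_CA tumours were then compared with WT gene by gene, to ask which copies lay behind these sums. The call was an adjusted p under 0.05 (edgeR's quasi-likelihood test, Benjamini-Hochberg over all genes tested), and changes are on the log2 scale with their standard error (SE). Of the 54 members with enough counts to be tested, 11 rose (20.4%) and 9 fell (16.7%), against 38.3% higher and 32.7% lower of the 16841 genes tested. Both shares lay under those of all genes, and that difference was not tested. The median log2 fold change was 0.06 over the members and 0.17 over all genes. By class, 0 rose and 2 fell of 5 H1 members tested, 6 and 0 of 12 of H2a, 2 and 2 of 13 of H2b, 2 and 2 of 11 of H3, and 1 and 3 of 13 of H4. The other 8 members had too few counts, and since a low gene passes that filter more easily where 1 group is high, these counts are a description. The H4 falls include Hist1h4m, with 2 counts over the Cyp1a2_CA libraries. With no filter, 12 of 62 rose and 9 fell.

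Gls2_CA tumours were compared with the same WT animals. Of 43 members tested, 7 rose (16.3%) and 10 fell (23.3%), against 39.2% higher and 34.0% lower of 14976 genes. The median was -0.33 over the members and 0.14 over all genes. The H1 members again gave 0 rises and 2 falls of 5, H2a 5 and 0 of 11, H2b 1 and 2 of 7, H3 1 and 2 of 8, and H4 0 and 4 of 12. The remaining 19 members were not tested, and with no filter 10 rose and 8 fell. The H2a rises include the pseudogene Hist1h2al, with 2 counts over the WT libraries. The H4 falls include Hist1h4m, with 1 count over the Gls2_CA libraries. Each passed the filter through the group where it was high, so these counts too are a description. Both comparisons rest on the same 6 WT animals, so they are not independent of each other.

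**Figure D2:**
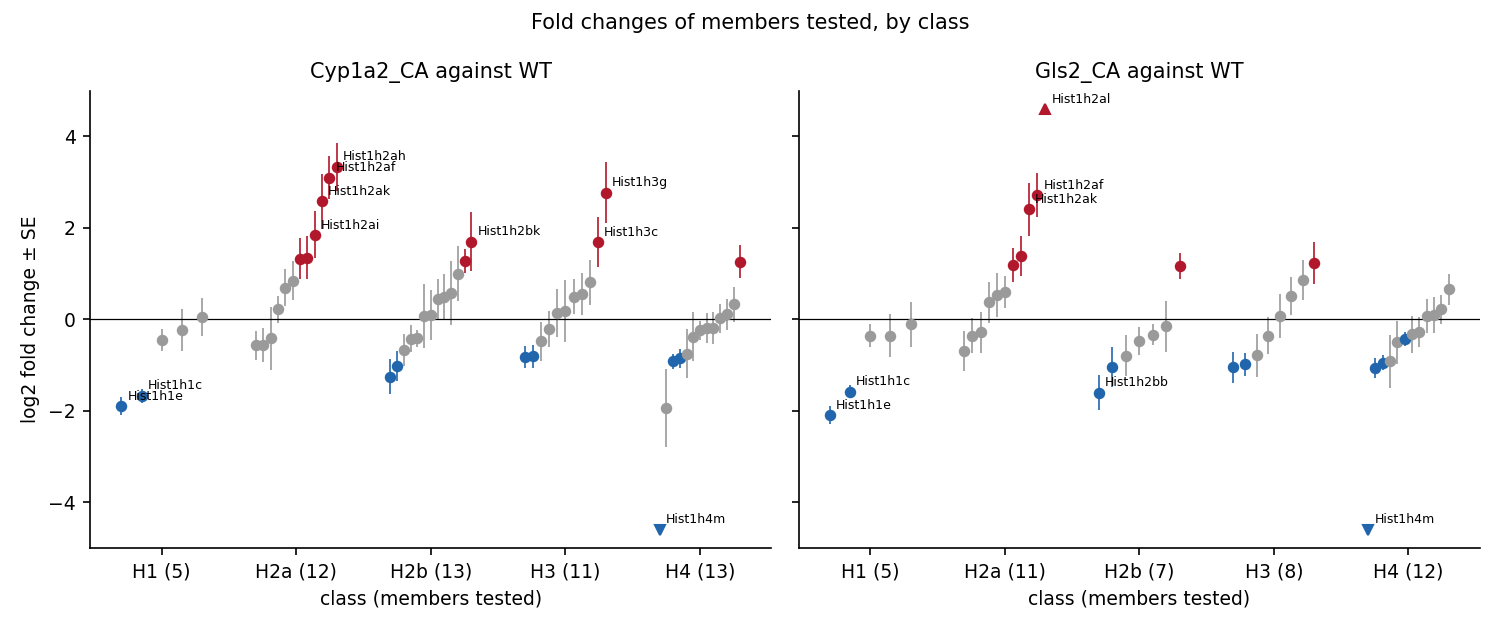
Log2 fold change against WT (y axis) of each member tested, by class (x axis, number tested in brackets), for Cyp1a2_CA and Gls2_CA. Whiskers are SE, red and blue mark adjusted p under 0.05 with edgeR, grey the rest, and triangles stand at the edge of the scale for changes beyond it (Hist1h4m at -8.71 and -9.23, Hist1h2al at 6.99). No H1 member is red and no H2a member is blue. Hist1h4m and Hist1h2al were near 0 in the lower group, so their calls are a description.

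The falls in H1 came from 2 abundant copies. Hist1h1e, a linker histone that carried 62.4% of the H1 sum in WT, lay between 42.3 and 70.8 CPM in the WT animals (median 53.3). In the Cyp1a2_CA animals it lay between 7.60 and 22.3 CPM (median 16.4). The Gls2_CA animals GAB18, GAB229, GAB235, GAB242 and GAB294 had 16.6, 8.92, 14.0, 15.0 and 14.0 CPM. All 14 tumour animals stood under the lowest WT animal. Its log2 fold change was -1.90 (SE 0.19, adjusted p = 2.7e-07, edgeR) in Cyp1a2_CA and -2.10 (SE 0.19, adjusted p = 1.2e-06) in Gls2_CA. Over all alternatives run it stayed between -2.12 and -1.31 and between -2.33 and -1.42, past the threshold each time.

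Hist1h1c, a clustered linker histone copy that is also expressed in cells that do not divide, fell as well. WT animals had 20.2 to 27.7 CPM (median 24.9) and Cyp1a2_CA animals 6.05 to 11.2 (median 7.17). The Gls2_CA animals had 8.32, 9.81, 6.24, 9.87 and 9.76 CPM, in the order above. The groups did not overlap. The log2 fold change was -1.67 (SE 0.15, adjusted p = 1e-07, edgeR) and -1.59 (SE 0.14, adjusted p = 9e-07). Hist1h1d gave -0.46 (SE 0.24, adjusted p = 0.096) and -0.37 (SE 0.25, adjusted p = 0.21), and without the Ttn-high animals the first became -0.62 (adjusted p = 0.034). Hist1h1a, a copy tied to dividing cells, was near 1 CPM in all 3 groups, with -0.25 (adjusted p = 0.64) and -0.11 (adjusted p = 0.85). Hist1h1t, the testis H1, had at most 0.131 CPM in any animal and was not tested against WT. H1f0, the replacement linker histone outside the clusters, fell by 0.89 and 0.87 (adjusted p = 1e-05 and 0.00031).

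Among members tested, the largest rise was that of Hist1h2ah in Cyp1a2_CA and of the pseudogene Hist1h2al in Gls2_CA, both with few WT counts. H2a copies other than pseudogenes encode near-identical core histones. The H2a calls higher were 6 of 12 tested (50%) in Cyp1a2_CA and 5 of 11 (45.5%) in Gls2_CA, Hist1h2al included. The shares of all genes were 38.3% and 39.2%, and the difference was not tested. All these H2a calls were copies with fewer than 50% of windows absent from every other gene. Of such H2a copies 9 and 8 were tested. Hist1h2ac, Hist1h2ae and Hist3h2a, with a larger share of such windows, were called in neither main comparison. The part of read assignment in these rises was not tested. Hist1h2af lay between 0.215 and 0.526 CPM in WT (median 0.418) and between 0.925 and 6.48 CPM in Cyp1a2_CA (median 2.85). The Gls2_CA animals had 5.11, 1.30, 3.50, 3.33 and 0.804 CPM. All tumour animals stood above all WT animals. The log2 fold change was 3.10 (SE 0.46, adjusted p = 2e-05, edgeR) in Cyp1a2_CA and 2.71 (SE 0.49, adjusted p = 0.00035) in Gls2_CA.

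Hist1h2ak, another H2A copy, had the most counts of the H2a members in tumours. WT animals had 0.367 to 2.52 CPM (median 0.683), Cyp1a2_CA 1.63 to 13.7 (median 3.54) and the Gls2_CA animals 5.36, 2.14, 10.8, 5.41 and 1.98. One WT animal, WT_Cre-BL1 at 2.52 CPM, overlapped the lowest tumours. It rose by 2.57 (SE 0.60, adjusted p = 0.0012, edgeR) and 2.40 (SE 0.58, adjusted p = 0.0028). The 4 Ttn-high libraries had 10.9 to 20.2 CPM and the other 16 tumour libraries 1.59 to 8.01. Without those animals the rises were 1.92 and 1.87.

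Hist1h2ah rose by 3.34 in Cyp1a2_CA (SE 0.52, adjusted p = 3.3e-05, edgeR), from 0.0611 to 0.193 CPM in WT to 0.327 to 2.63 CPM, with no overlap. With 12 counts over the WT libraries it passed the filter through the Cyp1a2_CA animals, so the size of the rise is imprecise and the call a description, as for Hist1h2bk with 19. It had too few counts to be tested in Gls2_CA, where the animals had 1.17, 0.357, 1.46, 1.16 and 0.333 CPM. Hist1h2ai rose by 1.84 and 1.38 (adjusted p = 0.0047 and 0.012) and Hist1h2ad by 1.32 and 1.19 (adjusted p = 0.014 and 0.011). Hist1h2ag, the remaining H2a call in Cyp1a2_CA, rose by 1.35 (adjusted p = 0.020), a call lost without the Ttn-high animals (1.11, adjusted p = 0.054). By contrast Hist2h2ac and Hist3h2a, which had the most counts of the H2a members in WT, at 3.21 ± 1.42 and 3.65 ± 1.41 CPM, did not pass in either comparison, with Hist3h2a at -0.57 (adjusted p = 0.18) and -0.29 (adjusted p = 0.58). Without the Ttn-high animals Hist3h2a passed as lower, at -1.08 and -1.01 (adjusted p = 0.0018 and 0.0044), and without CAB44 alone the first was -0.87 (adjusted p = 0.017). GAB235 had 7.66 CPM of it and the other Gls2_CA animals 1.78 to 2.30.

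Among H2b members, Hist1h2bc was the highest histone gene per base in all 3 groups, at 76.5 CPM per kilobase of exon in WT, 60.3 in Cyp1a2_CA and 65.2 in Gls2_CA. Its level was 67.5 to 110.1 CPM in WT (median 87.3) and 43.3 to 111.5 in Cyp1a2_CA (median 63.1). The Gls2_CA animals had 81.6, 64.5, 34.6, 95.9 and 100.3 CPM, and the Cyp1a2_C animal 17.3. The groups overlapped. The differences were -0.42 (SE 0.19, adjusted p = 0.059, edgeR) and -0.34 (SE 0.22, adjusted p = 0.19). Over 27 alternatives in Cyp1a2_CA the difference ran from -0.65 to 0.43, called lower in 8 and higher in 1. Over 23 in Gls2_CA it ran from -0.56 to 0.62, called lower in 1 and higher in 1. The 4 Ttn-high libraries had 17.98 to 48.7 CPM, under every one of the other 22 libraries (51.4 to 122.8).

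Hist1h2be rose by 1.27 (SE 0.27, adjusted p = 0.00055) and 1.15 (SE 0.28, adjusted p = 0.0031), with every tumour animal above every WT animal, though its annotation overlaps Hist1h1e as given above. Hist1h2bk rose in Cyp1a2_CA by 1.70 (adjusted p = 0.029), a call that was lost without CAB225 (1.42, adjusted p = 0.053), without 1 of WT_Cre-BL2, WT_Cre-BL4 and WT_Cre-BL6 (1.69, 1.52 and 1.45), and without the Ttn-high animals (1.30, adjusted p = 0.078). Hist1h2bb fell by 1.25 (adjusted p = 0.0073) and 1.60 (adjusted p = 0.0025), from 2.26 to 3.33 CPM in WT to 0.245 to 2.14 in Cyp1a2_CA, with no overlap. Hist2h2bb fell in Cyp1a2_CA by 1.02 (adjusted p = 0.012) and gave -0.80 in Gls2_CA (adjusted p = 0.12). Hist1h2bg gave -0.67 in Cyp1a2_CA (adjusted p = 0.096) and fell by 1.05 in Gls2_CA (adjusted p = 0.049). Hist2h2be gave -0.42 and -0.48 and did not pass. Without the Ttn-high animals 3 more H2b calls were made, Hist1h2bg in Cyp1a2_CA at -0.98 (adjusted p = 0.015), and in Gls2_CA Hist2h2bb at -1.09 (adjusted p = 0.035) and Hist2h2be at -0.74 (adjusted p = 0.031).

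H3 copies moved in opposite directions. Hist1h3e, the H3 copy with the most counts, fell by 0.81 (adjusted p = 0.0098) and 0.99 (adjusted p = 0.0040), from 5.61 to 8.66 CPM in WT to 1.57 to 5.91 in Cyp1a2_CA and 4.95, 2.09, 4.32, 3.37 and 2.43 in Gls2_CA. Hist1h3f fell by 0.83 (adjusted p = 0.0077) and 1.05 (adjusted p = 0.013). Hist1h3c rose by 1.69 (adjusted p = 0.011) and 1.23 (adjusted p = 0.030), and its Gls2_CA call was lost without GAB18, GAB235, GAB242 or 1 of WT_Cre-BL2, WT_Cre-BL3, WT_Cre-BL4 and WT_Cre-BL6 (adjusted p between 0.053 and 0.075), GAB235 being the Ttn-high animal of that group. Hist1h3g rose in Cyp1a2_CA by 2.77 (SE 0.67, adjusted p = 0.0017), from at most 0.287 CPM in WT to 0.381 to 1.86. It had 14 counts over the WT libraries and too few to be tested in Gls2_CA, so it passed the filter through the Cyp1a2_CA animals and its rise is a description. Hist2h3b did not pass.

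The H4 calls lower were 3 of 13 tested in Cyp1a2_CA and 4 of 12 in Gls2_CA, at or under the shares of all genes (32.7% and 34.0%). Hist1h4m, near 0 in both tumour groups, is among them in both and is given by its counts below. Hist1h4d, the H4 copy with the most counts, lay between 23.4 and 29.8 CPM in WT (median 25.3) and between 8.71 and 24.9 in Cyp1a2_CA (median 14.1). The Gls2_CA animals had 16.5, 7.005, 16.6, 15.4 and 11.1 CPM. CAB239 was the 1 tumour animal of these groups inside the WT range. It fell by 0.86 (SE 0.21, adjusted p = 0.0018, edgeR) and 1.06 (SE 0.22, adjusted p = 0.00088). Hist1h4h fell by 0.93 (adjusted p = 6.8e-05) and 0.95 (adjusted p = 0.00027). Hist1h4c gave -0.24 (adjusted p = 0.31) in Cyp1a2_CA and passed in Gls2_CA at -0.43 (adjusted p = 0.028), a call lost without GAB18, GAB229, GAB294 or WT_Cre-BL6. Over 23 alternatives that call was kept in 13, lost in 9, the losses just named included, and reversed in 1. Hist1h4i was the 1 H4 member that rose, by 1.26 in Cyp1a2_CA (adjusted p = 0.0056), with 0.65 in Gls2_CA (adjusted p = 0.10). Hist2h4 and Hist4h4 did not pass in either comparison. Without the Ttn-high animals Hist4h4 and Hist1h4k passed as lower in Cyp1a2_CA, at -1.04 and -1.49 (adjusted p = 0.049 and 0.0058), from -0.38 and -0.76 with them.

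Members are short, with a median of 536.5 exon bases against 4198 for genes tested between Cyp1a2_CA and WT, and short genes as a whole were lower in tumours. Genes of up to 1000 exon bases had a median log2 fold change of -1.003 in Cyp1a2_CA (106 higher and 405 lower of 736 tested) and -1.08 in Gls2_CA (71 and 332 of 562). When length and GC content of each gene entered the model as an offset, 23 members were higher and 4 lower in Cyp1a2_CA, with a median of 0.73, and 16 were higher and 4 lower in Gls2_CA, with a median of 0.62. Over all genes the same model called 5226 higher and 4787 lower of 14845, with a median of 0.10, and 4886 and 4544 of 13521, with a median of 0.07. The members' share called higher lay near that of all genes and their share called lower under it, a difference that was not tested. The 4 lower were Hist1h1c, Hist1h1d, Hist1h1e and Hist1h4m in both, the last a description because it was near 0 in both tumour groups. Hist1h1e was then at -1.31 and -1.42 and Hist1h2af at 3.80 and 3.58. The falls of Hist1h4d, Hist1h4h, Hist1h2bb and Hist1h3f were no longer called, Hist1h3e stood at 0.10 and 0.04, and Hist1h4c and Hist1h2bc were called higher, at 0.70 and 0.68 and at 0.43 and 0.62. Hist1h1a, not called, turned from -0.25 and -0.11 to 0.60 and 0.80. Hist3h2a, an H2a member not called, turned from -0.57 and -0.29 to 0.03 and 0.56. Directions therefore turn for some members of every class with this setting. Hist1h1c, Hist1h1d and Hist1h1e stayed lower and the H2a members called higher stayed higher. The part of gene length in these results was not tested beyond this offset.

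Several H2a and H2b genes lie head to head. By annotated start sites, 10 pairs of an H2a and an H2b member start within 1000 bases of each other on opposite strands. In Cyp1a2_CA against WT both genes were tested in 8 pairs, and the H2a change was above that of its H2b neighbour in 7, with a median difference of 1.14 on the log2 scale (from -0.15 to 2.51). Hist1h2ak and Hist1h2bn, whose starts lie 296 bases apart, were at 2.57 and 0.06. Hist1h2ah and Hist1h2bk, 302 bases apart, were at 3.34 and 1.70. The exception was Hist1h2ac, at -0.57, beside Hist1h2bc, at -0.42. Under that offset it was again 7 of 8. In Gls2_CA it was 3 of 4. Pairs were chosen by position alone, and their differences were not tested.

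**Figure D3:**
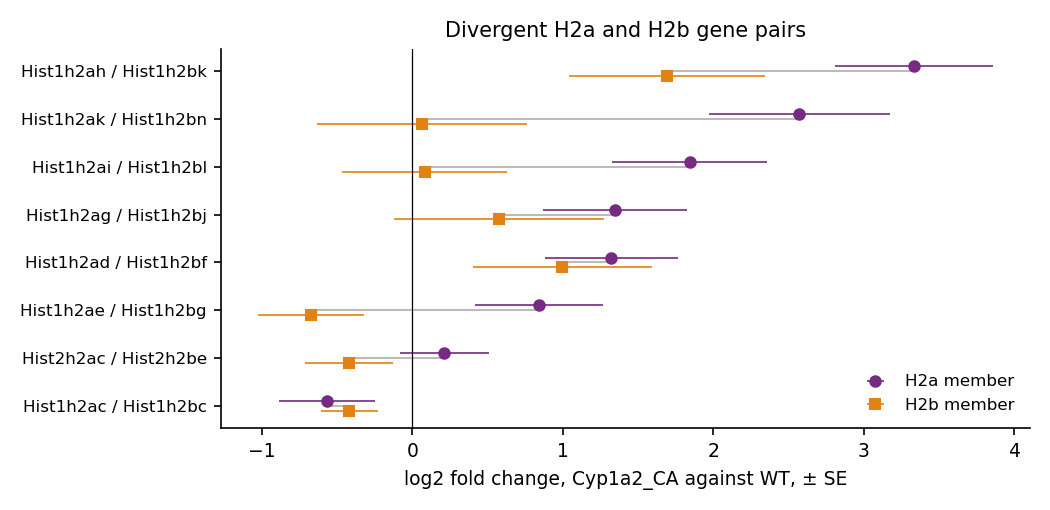
Log2 fold change with SE (x axis) of both genes of the 8 head-to-head H2a and H2b pairs tested in Cyp1a2_CA against WT. Circles are H2a members, squares H2b members, and the circle lies to the right in 7 pairs.

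A few members were near 0 in part of the libraries and are given by their counts. Hist1h4m, an H4 copy at chr13:21811746-21812147 whose nearest copy is Hist1h4n, had 1.37 to 4.88 CPM in each WT library (313 counts in all). It had 2 counts over the 10 Cyp1a2_CA libraries and 1 over the 9 Gls2_CA libraries. The ratio of WT to Cyp1a2_CA was 675 (95% interval 185 to 5596, counting error only) and that of WT to Gls2_CA 1135 (202 to 44967). The single Cyp1a2_C library had 1.10 CPM, under the lowest WT library and above all 19 libraries of the other tumour groups. Hist1h4n, with which it shares most windows, was at 1.41 ± 0.53 CPM in WT, 1.85 ± 0.75 in Cyp1a2_CA and 1.73 ± 0.37 in Gls2_CA and did not pass.

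The pseudogene Hist1h2al had the opposite pattern, with 2 counts over the WT libraries. It was present in all 9 Gls2_CA libraries, at 0.769 to 9.10 CPM, and in CAB170, CAB26 and CAB239 of Cyp1a2_CA, at 2.19, 1.67 and 2.78 CPM. The other 7 Cyp1a2_CA libraries had at most 0.0244 CPM and the Cyp1a2_C library 0.0561. The ratio of Gls2_CA to WT was 211 (95% interval 58.2 to 1740) and that of Cyp1a2_CA to WT 32.6 (8.94 to 270). Both intervals hold counting error only and leave out the spread between animals. Its difference between Cyp1a2_CA and Gls2_CA, -2.10 on the log2 scale, did not pass. Hist3h2ba, an H2b gene outside the main cluster, was at 1.55 to 3.70 CPM in the 4 Ttn-high libraries and at most 0.113 CPM in the other 22. These 4 were chosen by Ttn and not by a histone gene, and the pattern was not tested.

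**Figure D4:**
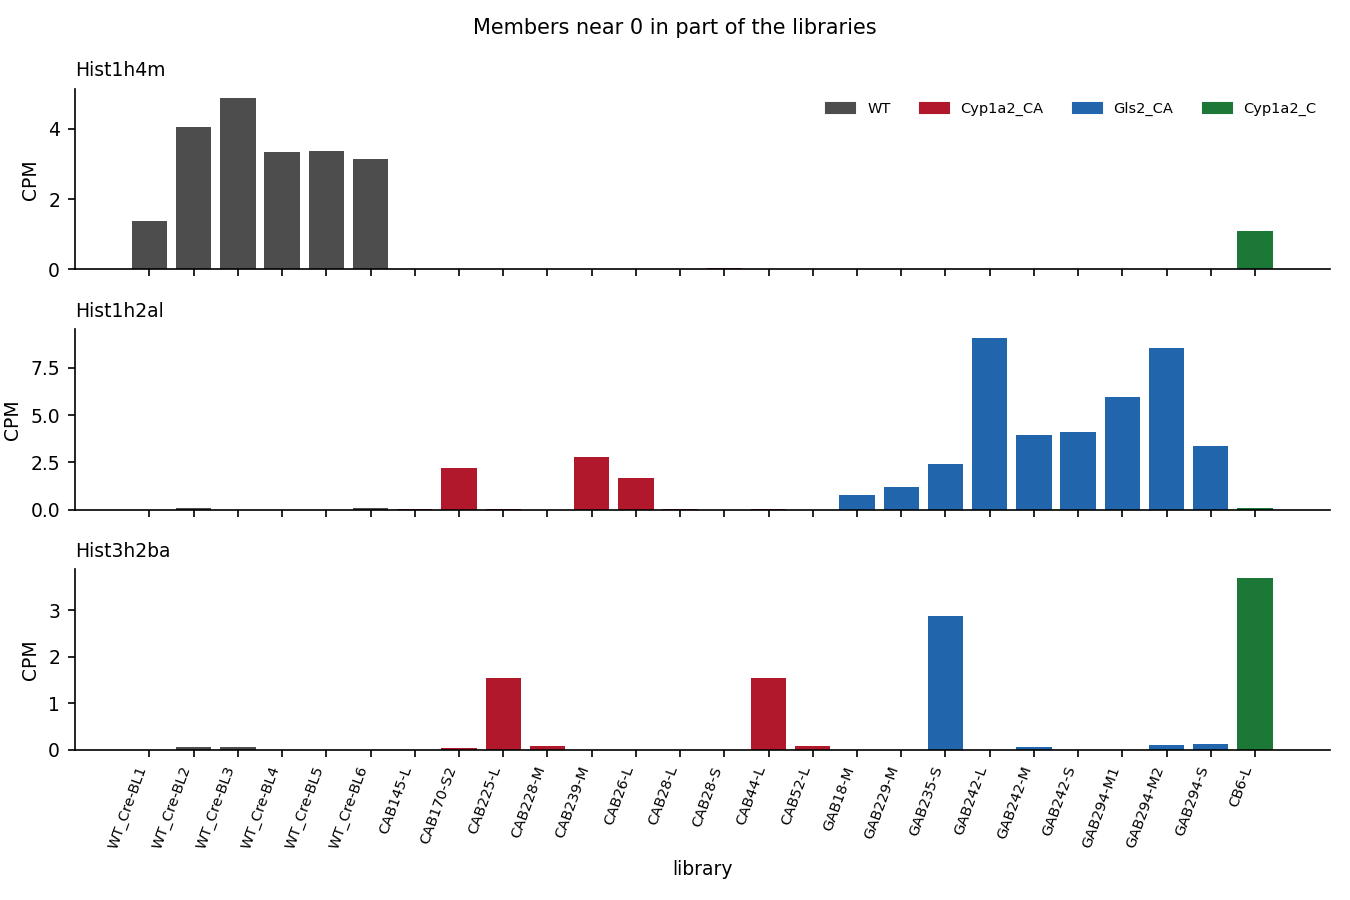
CPM per library (y axis, linear from 0) of Hist1h4m, Hist1h2al and Hist3h2ba in all 26 libraries (x axis), coloured by group. Hist1h4m is seen in the 6 WT libraries and the Cyp1a2_C library, Hist1h2al in 12 tumour libraries, and Hist3h2ba in the 4 libraries with high Ttn.

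Zone of origin was addressed by Cyp1a2_CA against Gls2_CA. Of 54 members tested 0 were called, and 0 had an unadjusted p under 0.05. Over all 17129 genes edgeR called 0 (0.0%), with 554 at an unadjusted p under 0.05, and no member was called by DESeq2 or limma-voom. Changes of the members ran from -2.10 for Hist1h2al to 0.82. The 95% interval of the difference was -0.30 to 0.70 for Hist1h1e, -0.51 to 0.33 for Hist1h1c, -0.67 to 0.49 for Hist1h2bc and -0.73 to 1.49 for Hist1h2af. Differences of that size in either direction cannot be told from the spread between animals, and on simulated counts this comparison recovered 6.0% of genes changed 2-fold and 59.0% of those changed 4-fold.

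To follow the members among tumours, they were set against Mki67, a marker of dividing cells that lay between 54.3 and 685.6 CPM in the 14 tumour animals of the replicated groups. The slope is the log2 change of a gene per doubling of Mki67 within groups. Of 56 members 1 passed (edgeR, adjusted over 18548 genes, of which 23, Mki67 itself included, or 0.124% passed): Hist1h2af, at 1.08 (SE 0.15, adjusted p = 0.016). At an unadjusted p under 0.05 there were 37 of 56 members (66.1%), all classes included, and 1494 of 18548 genes (8.05%). The median slope was 0.70 over members and 0.03 over all genes. By class the median slope was 0.34 for H1, 0.89 for H2a, 0.74 for H2b, 0.76 for H3 and 0.34 for H4. All these slopes come from the same 14 animals, so the members are not replicates of one another.

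Slopes of single copies differed. Hist1h1e had a slope of 0.11 (adjusted p = 0.81), Hist1h1c 0.10 (adjusted p = 0.80), Hist1h4h 0.06 (adjusted p = 0.89), Hist1h4d 0.33 (adjusted p = 0.61) and Hist1h2bc -0.05 (adjusted p = 0.95). Hist1h3c had 1.37 (adjusted p = 0.061), Hist1h2ah 1.04 (adjusted p = 0.066) and Hist1h2bb, which fell against WT, 0.99 (adjusted p = 0.10). The 20 members with at least 300 annotated bases after the stop codon, a limit set after the values were seen, had a median slope of 0.33 in the 19 tested, and the 40 with fewer had 0.85 in the 36 tested. Against WT the same 2 sets had medians of -0.42 and 0.32 in Cyp1a2_CA and of -0.45 and -0.13 in Gls2_CA. The call of Hist1h2af was lost without CAB26 or GAB294, without the 2 animals farthest from the median of Mki67 (GAB294 and CAB52) and in Cyp1a2_CA alone, while 24 members passed with DESeq2, 6 with Top2a in place of Mki67 and 3 without the Ttn-high animals.

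**Figure D5:**
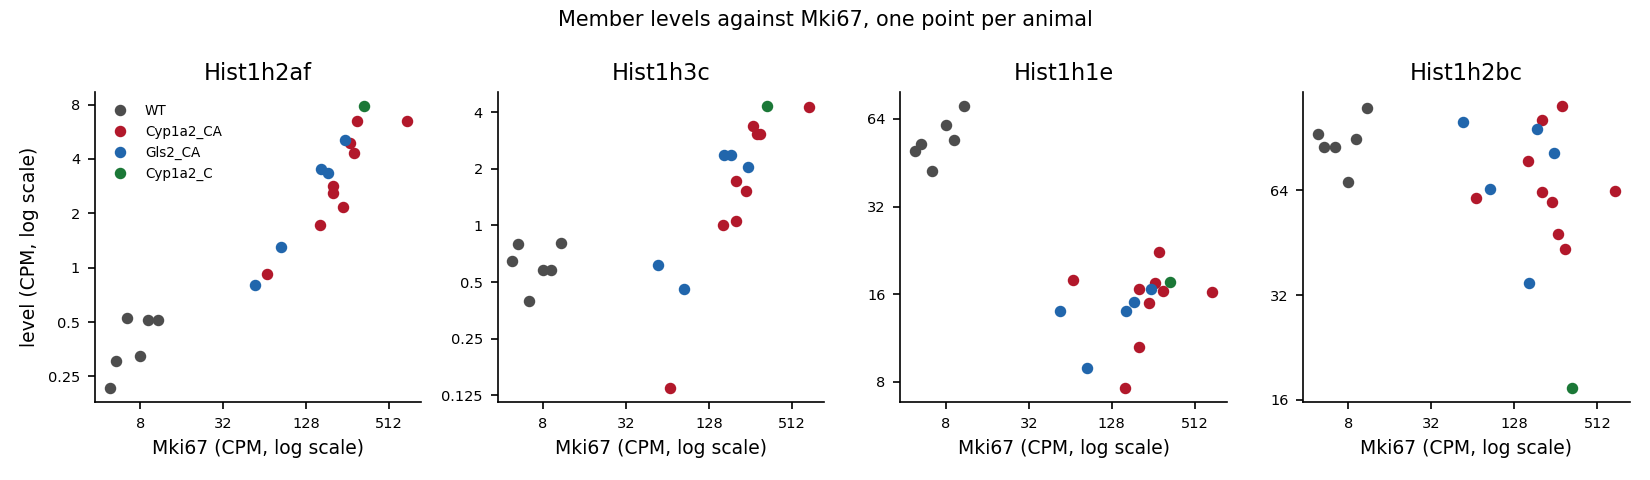
Level (y axis, CPM, log scale) against Mki67 (x axis, CPM, log scale) of 4 members, with 1 point per animal coloured by group. The slopes among the tumours were 1.08 for Hist1h2af, 1.37 for Hist1h3c, 0.11 for Hist1h1e and -0.05 for Hist1h2bc. Only that of Hist1h2af passed with edgeR, a call that was lost in some of the other settings.

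Other genes of the pathway were read from fixed lists. Their counts stand against 38.3% higher and 32.7% lower of all genes in Cyp1a2_CA and 39.2% and 34.0% in Gls2_CA, and no list was tested against that background. Of 16 tested genes of histone transcription and pre-mRNA processing, 10 rose and 4 fell in Cyp1a2_CA, and 8 and 4 in Gls2_CA. Hinfp, a factor of H4 transcription, rose by 1.94 and 1.89, and Pou2f1, which binds the octamer, by 2.32 and 2.31. Npat, the S-phase coactivator, was at 0.43 (adjusted p = 0.039) and 0.29 (adjusted p = 0.17), and the first call was lost in 5 of the other settings and without 1 of CAB44, CAB52, CAB225 and all WT animals but WT_Cre-BL5. Slbp, which binds the stem-loop, did not pass, at 0.28 (adjusted p = 0.096) and 0.27 (adjusted p = 0.15). Ncbp2, a subunit of the cap-binding complex, fell by 1.27 and 1.38, and Eri1, an exonuclease that trims histone mRNA ends, by 1.12 and 1.40.

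Of 18 histone chaperones, 10 rose and 4 fell in Cyp1a2_CA and 9 and 5 in Gls2_CA, with Atrx up by 3.32 and 3.19 and Supt16, a FACT subunit, down by 1.23 and 1.38. Among replacement and other variants outside the clusters, whose mRNAs are mostly polyadenylated, 4 rose and 3 fell of 11, and 3 and 4 of 10. H2afy, which encodes macroH2A1, rose by 1.99 and 2.06, the centromeric Cenpa by 2.77 and 1.94, and H3f3a, an H3.3 gene, fell by 1.34 and 1.35. H3f3b, which encodes the same protein, gave -0.05 and 0.05 and did not pass. Of 25 genes of DNA replication, 12 rose and 7 fell, and 11 and 7, shares near those of all genes, with Ccna2 up by 2.99 and 2.22 and Pcna down by 1.28 and 1.30. All 15 mitosis genes rose in Cyp1a2_CA (median 3.06) and 12 of 13 tested in Gls2_CA (median 2.04). With the length and GC offset the list counts changed. Transcription and processing genes then gave 7 higher and 4 lower in both comparisons. Chaperones gave 8 and 7 in Cyp1a2_CA and 8 and 8 in Gls2_CA. Replacement variants gave 6 and 3, and 5 and 2, and replication genes 10 and 8, and 10 and 7. Mitosis genes kept 15 and 12 higher. Summed hepatocyte markers were at 83343 to 104270 CPM in WT, 11696 to 51322 in Cyp1a2_CA and 4731 to 27944 in Gls2_CA, and 8 endothelial markers at 332.9 to 375.8, 182.0 to 300.9 and 177.3 to 298.9 CPM. Summed macrophage markers were at 234.6 to 280.4, 63.6 to 217.7 and 108.2 to 216.6 CPM, and stellate cell and fibroblast markers at 380.2 to 467.5, 145.1 to 607.7 and 149.7 to 212.6 CPM. Of 8 endothelial markers, 2 were called higher and 4 lower in Cyp1a2_CA, and 1 and 4 in Gls2_CA. For 8 macrophage markers it was 0 and 3, and 2 and 4. For 8 stellate cell and fibroblast markers it was 1 and 3, and 1 and 5. The shares of all genes are those given above, and these sums do not stand for every marker. Summed cholangiocyte markers were higher in most tumours, at 48.997 to 80.7, 54.0 to 211.3 and 106.5 to 258.2 CPM. Gene by gene, 3 of 8 had a positive log2 fold change in Cyp1a2_CA (median -0.59). In Gls2_CA it was 5 of 7 (median 0.29), so the sum does not stand for every marker. Erythroid and neutrophil precursor markers were at 70.006 to 101.7, 8.07 to 85.4 and 6.26 to 86.3 CPM, and T, NK and B cell markers at 3.55 to 5.51, 1.41 to 31.96 and 1.89 to 16.3 CPM. Male germ cell markers came to at most 2.98 CPM in any animal, with Prm2, Tnp1 and Stra8 at 0 in every group. The part of cell composition in the histone results was not tested.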

How the data were processed

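RNA came from TRIzol and PureLink extraction and Nugen Ovation libraries, per the labels' protocols. The authors deposited 1 table of raw counts per gene for 26 libraries, aligned to mm10 per the submitters' processing notes. Aligner, counter and strand setting were not stated in what was at hand. All columns were mapped to samples by title. Libraries of 1 animal number were summed, genes with low counts were removed (filterByExpr), TMM factors were used, and groups were compared in pairs with edgeR 4.0.16 (quasi-likelihood, robust) in R 4.3.3, with Benjamini-Hochberg adjustment over all genes tested and a threshold of 0.05. CPM of animals and of single libraries, and ratios of pooled counts, use TMM-scaled library sizes. The Mki67 slope came from a model with group and log2 CPM of Mki67. DESeq2 1.42.0 and limma 3.58.1 (voom) were alternatives. Tested on simulated data, the fit recovered 35.0% of genes changed 2-fold and 69.0% changed 4-fold in Cyp1a2_CA against WT, and 28.0% and 88.0% in Gls2_CA against WT. The members, lists and tests were chosen with earlier results of these data known. Genes were named by rule: the 4 members of each class with the highest mean CPM, the 6 largest rises and 6 largest falls past the threshold in each comparison, a few members by name, in each list up to 4 genes of lowest p, and head-to-head pairs by position. Hist1h2ac, Hist1h2bn and the members near 0 that fall outside it were singled out by position or after their values were seen.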

Additional observations from a re-analysis of the deposited data

Results flagged for a closer look

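In 10 of 105 group and gene combinations checked, 1 animal stood apart from the rest of its group by Dixon's criterion, where chance gives about 1 in 20. WT_Cre-BL1 was the high animal for 5 of them: the H2a sum (22.7 CPM), Hist1h1d (11.2 CPM), Hist1h2ak (2.52 CPM), Hist1h3e (8.66 CPM) and Hist2h4 (5.68 CPM). GAB235, an animal with high Ttn, stood above the other Gls2_CA animals for Hist3h2a (7.66 CPM) and Hist1h2be (6.02 CPM). CAB170 stood above the other Cyp1a2_CA animals for Hist2h2ac (7.54 CPM). GAB294 was the only Gls2_CA animal with a count of Hist1h4m (0.00924 CPM, 1 count), and WT_Cre-BL3 the only WT animal with any of Hist1h1t (0.131 CPM, 2 counts).

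The single Cyp1a2_C animal, which enters no comparison, lay above the highest WT animal for several measures. Its H2a sum was 67.7 CPM and its H3 sum 29.0 CPM. Among H2a members it had 19.5 CPM of Hist1h2ak, 9.36 of Hist3h2a, 7.85 of Hist1h2af, 6.14 of Hist1h2ai, 2.88 of Hist1h2ah and 1.10 of Hist1h2ad. Among the others it had 5.97 CPM of Hist1h2be, 4.62 of Hist1h3f, 4.32 of Hist1h3c, 2.41 of Hist1h3g and 1.26 of Hist1h2bk. With 1 animal that is also among those with high Ttn, none of these was tested.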

How the results depend on the processing

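Members lower in Cyp1a2_CA than WT numbered 14 with upper-quartile factors, 16 with limma-voom quality weights and 14 without the Ttn-high animals. With the stricter count filter 9 were called (2 higher) of 12 tested, and in Gls2_CA 9 (3 higher, 6 lower) of 16. With the length and GC offset 23 were higher and 4 lower in Cyp1a2_CA, and 16 and 4 in Gls2_CA. That offset turned Hist1h2bc to 0.43 and 0.62, Hist1h3e to 0.10 and 0.042, and Hist1h4c to 0.70 and 0.68, and the cause was not tested. Upper-quartile factors moved the median of all genes from 0.17 to -0.05 and from 0.14 to -0.09, and the WT H4 sum to 69.0 CPM. Members with a Mki67 slope numbered 24 with DESeq2, 3 without the Ttn-high animals, 6 with Top2a, and 0 both without the 2 animals farthest from the median Mki67 and in Cyp1a2_CA alone. Leaving out 1 animal gave 0 (CAB26 or GAB294) to 2 (CAB225 or GAB18), 19 to 23 called in Cyp1a2_CA and 15 to 19 in Gls2_CA. No paired analysis was possible because the labels give no number that ties an animal of one group to an animal of another. Total counts were lower in WT than in tumours, so low copies are less precise there.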
